A study of Mus musculus with 23 samples.

Results

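Subclones 2 and 3 of the LLC line (Lewis lung carcinoma, a mouse tumour that grows in culture and when transplanted) were compared directly through 3 arrays of subclone 2 and 3 arrays of subclone 3, which are 6 of the 23 arrays measured. The other 17 arrays came from subclones 6, 18, 19, 23, 24 and 28. Per the labels, every subclone was isolated from the parental line by limiting dilution, so each group is 1 clone. The cells were kept in DMEM with 10% FBS and penicillin and streptomycin, and all spent 24 h in FreeStyle expression medium without serum before RNA was taken. No engineered allele, drug or host animal is named for any group. The labels call the arrays biological replicates and do not say that they came from separate cultures, so p-values measure the spread between these arrays, which may be technical. The pair was chosen from these same measurements, as subclones that resemble each other over most genes and differ in proliferation and sterol synthesis genes, with Cdc20, Idi1, Saa3 and Afp as markers. Those 4 genes and 6 gene lists on proliferation and lipid synthesis are therefore described without a test.

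In dividing cells, E2F factors drive the genes of DNA replication. The MuvB complex with B-MYB and FOXM1 then drives the mitotic genes, whose products build the spindle and are cleared through the anaphase-promoting complex (APC/C). Cholesterol synthesis is switched on when sterols fall in the endoplasmic reticulum: SCAP escorts the transcription factor SREBP2 to the Golgi, where it is cut free, and INSIG proteins hold it back when sterol is plentiful. Acute-phase proteins such as serum amyloid A are secreted in response to cytokines of the interleukin-6 and interleukin-1 families, which signal in part through STAT3.

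Levels are log2(intensity + 16), so the floor is 4.0, and a level under 5.3 was treated as near background. Array medians of the deposited intensities lay between 40.83 and 44.42 in the 6 arrays. The root mean square distance between arrays was 0.193 to 0.22 log2 units within subclone 2, 0.216 to 0.242 within subclone 3, and 0.335 to 0.359 over the 9 pairs of arrays across them. Among the 28 pairs of subclones, which spanned 0.307 to 0.542, this pair was the 4th closest. Of 18193 genes, 241 (1.32%) passed an adjusted p of 0.05 in limma with a difference of at least 2-fold. Of these, 75 (0.412%) were higher and 166 (0.912%) were lower in subclone 2, and the arrays of the subclones did not overlap for any of the 241. Differences past 4-fold numbered 14 higher and 11 lower. In 39 of the 241 the lower subclone was near background, where a fold on this scale is compressed. Among the 176 measured genes that entered the choice of the pair, 2 were higher and 22 lower, and outside them 73 were higher and 144 lower.

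The mitotic genes moved together between the subclones, so the promoters of 3 of them are shown first. The windows are the 250 bases before the annotated start, 5′ to 3′ on the strand of the gene, from RefSeq with build GRCm38.p6. Cdc20, the activator of the APC/C, lies on the minus strand with its window at chr4:118437344-118437593. Kif11, the kinesin that pushes spindle poles apart, lies on the plus strand at chr19:37376132-37376381. Ccnb2, a B-type cyclin of mitosis, lies on the minus strand at chr9:70421555-70421804. It belongs to the cyclin list, so it is not among the mitosis genes counted after the sequences. Capitals mark CCAAT, the box bound by NF-Y, and TTTGAA, the core of the cell cycle genes homology region (CHR) bound by MuvB, on either strand, where they read ATTGG and TTCAAA on the other.
Cdc20: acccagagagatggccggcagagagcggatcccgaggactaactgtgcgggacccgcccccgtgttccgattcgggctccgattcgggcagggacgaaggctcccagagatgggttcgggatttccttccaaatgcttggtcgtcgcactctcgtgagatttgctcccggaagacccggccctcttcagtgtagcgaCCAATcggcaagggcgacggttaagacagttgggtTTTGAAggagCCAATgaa
Kif11: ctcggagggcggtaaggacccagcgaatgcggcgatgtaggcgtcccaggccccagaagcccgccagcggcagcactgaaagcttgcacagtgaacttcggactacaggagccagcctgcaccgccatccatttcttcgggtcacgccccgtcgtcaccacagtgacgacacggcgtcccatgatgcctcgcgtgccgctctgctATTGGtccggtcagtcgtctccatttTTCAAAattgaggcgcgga
Ccnb2: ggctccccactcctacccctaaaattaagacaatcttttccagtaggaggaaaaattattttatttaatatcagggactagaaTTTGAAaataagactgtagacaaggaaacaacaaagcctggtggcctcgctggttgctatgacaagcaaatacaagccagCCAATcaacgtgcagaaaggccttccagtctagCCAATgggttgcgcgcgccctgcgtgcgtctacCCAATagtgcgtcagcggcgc
Among 48 windows of 45 mitosis genes, 33 (68.8%) held CCAAT and 18 (37.5%) held TTTGAA, against 33.8% and 16% of all 32851 windows of the same length. The E2F letters TTTNNCGC or their complement GCGNNAAA were in 8 of the 48 (16.7%), against 4.28% of all windows. Among 35 windows of 30 replication genes the order differed: 10 (28.6%) held the E2F letters, 20 (57.1%) held CCAAT and 5 (14.3%) held TTTGAA. A match describes the letters only, and a window may hold several motifs. The windows of Cdc20, Kif11 and Ccnb2 all hold both CCAAT and TTTGAA, which most windows of the mitosis genes do not.

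Windows of 3 sterol genes follow. Idi1, isopentenyl diphosphate isomerase, has its window at chr13:8885356-8885605 on the plus strand. Lss, lanosterol synthase, has its window at chr10:76531355-76531604 on the plus strand. Hmgcs1, the cytosolic HMG-CoA synthase at the entry of the pathway, has its window at chr13:119690101-119690350 on the plus strand, and was picked after its window and values were seen because it holds both motifs. Capitals mark CCAAT or ATTGG, and TCACNCCAC or its complement GTGGNGTGA, the sterol regulatory element (SRE) read by SREBP.
Idi1: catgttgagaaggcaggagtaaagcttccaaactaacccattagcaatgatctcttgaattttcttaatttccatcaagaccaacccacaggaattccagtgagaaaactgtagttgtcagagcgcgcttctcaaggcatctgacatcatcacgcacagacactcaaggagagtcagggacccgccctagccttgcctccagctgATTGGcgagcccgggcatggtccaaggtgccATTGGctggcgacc
Lss: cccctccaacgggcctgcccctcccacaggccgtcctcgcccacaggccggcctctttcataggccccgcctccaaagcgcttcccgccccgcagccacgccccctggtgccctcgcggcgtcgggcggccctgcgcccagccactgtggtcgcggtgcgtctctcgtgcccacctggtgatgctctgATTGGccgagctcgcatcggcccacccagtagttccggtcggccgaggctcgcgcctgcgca
Hmgcs1: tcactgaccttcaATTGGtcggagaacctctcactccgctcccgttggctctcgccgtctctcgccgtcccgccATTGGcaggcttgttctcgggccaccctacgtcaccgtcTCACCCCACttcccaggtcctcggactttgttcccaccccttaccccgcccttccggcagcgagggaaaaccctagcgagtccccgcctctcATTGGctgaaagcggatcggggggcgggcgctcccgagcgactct
CCAAT was in 14 of 17 sterol windows (82.4%, from 14 genes). The SRE letters in this strict form were in 1 of the 17 (5.88%), that of Hmgcs1, against 1.05% of all windows. TTTGAA was in 1 of the 17 and the E2F letters in 0.

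Mitosis genes were lower in subclone 2 almost throughout. Averaged over 52 genes of the kinetochore, spindle, passenger complex and APC/C, the level was 8.91, 8.86 and 9.06 on the subclone 2 arrays, against 9.89, 9.76 and 9.81 on the subclone 3 arrays. The highest array of subclone 2 thus lay below the lowest of subclone 3. The median log2 difference of the 52 genes was -0.93, against -0.01 over all genes, and all arrays of subclone 2 were below all of subclone 3 for 51 of them, where 21.6% of all genes showed that order. The exception was Kif15, a spindle kinesin, at 5.11 in subclone 2 and 4.55 in subclone 3, near background. Relative to the mean of the other 6 subclones, the median was -0.87 in subclone 2 and 0.06 in subclone 3, and subclone 2 was the farther from those 6 for 50 of the 52 genes. In bulk RNA, fewer cells in mitosis and less of these RNAs per cell cannot be told apart.

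**Figure D1:**
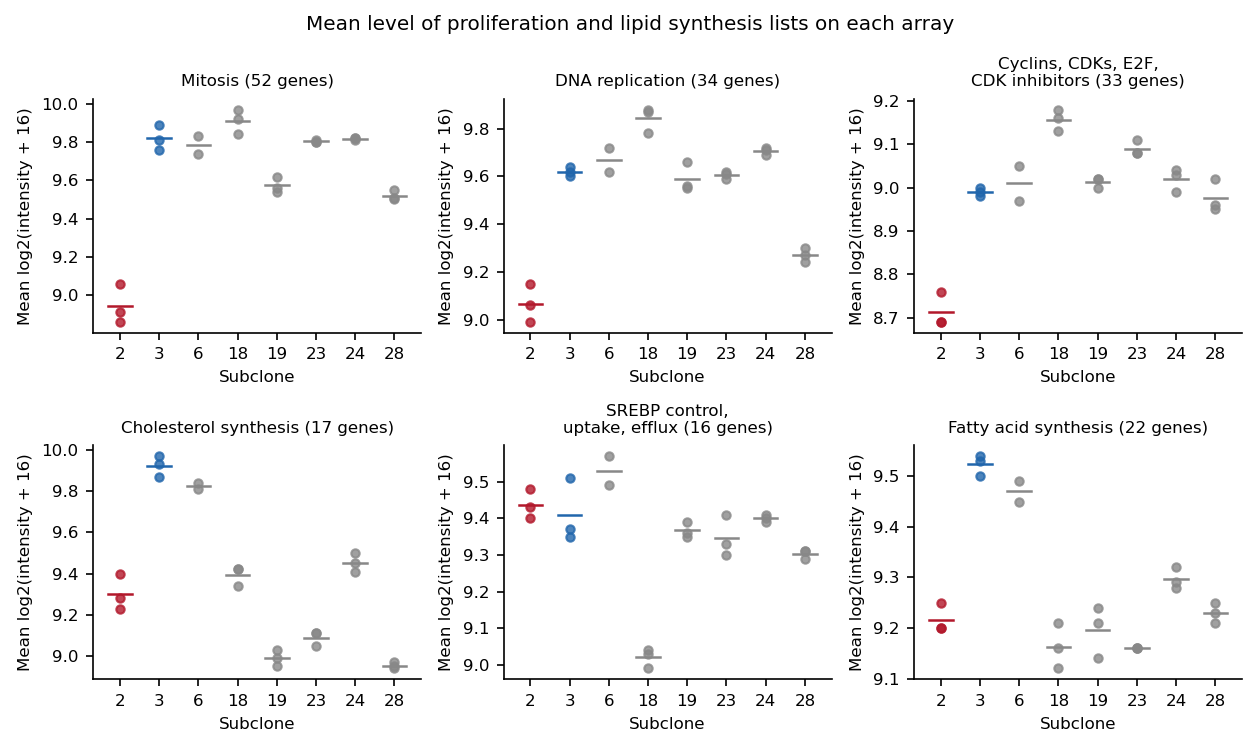
Mean log2(intensity + 16) of 6 gene lists on each of the 23 arrays, by subclone (points are arrays, bars are subclone means, each panel has its own axis that does not start at 0). Subclone 2 (red) is the lowest subclone for mitosis, DNA replication and the cyclin list, and subclone 3 (blue) is the highest for cholesterol and fatty acid synthesis.

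Cdc20, which starts anaphase by directing the APC/C to securin and cyclin B, was at 9.81, 9.75 and 9.94 in subclone 2, against 10.70, 10.74 and 10.82 in subclone 3. The groups did not overlap, the difference was -0.92 ± 0.0754 log2 units (SE), and all 3 probe sets of the gene ran the same way. Subclone 2 ranked last and subclone 3 sixth of the 8 subclones, whose other means ran from 10.68 to 11.52. For this gene, then, both lay on the low side of the range.

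Some genes of the passenger complex and of the central spindle were among the widest mitotic differences. Others of these structures lay near the list median of -0.93 or short of it. Birc5 of the passenger complex differed by -0.84, and Kif23, Ect2, Racgap1 and Kif20a of the central spindle by -0.94, -0.96, -0.89 and -0.70. Aurkb, the kinase of the passenger complex, was at 8.31, 8.26 and 8.48 in subclone 2 and 9.68, 9.47 and 9.58 in subclone 3, a difference of -1.23 ± 0.0681. Its partner Cdca8 (borealin) differed by -1.12 ± 0.0611 and its scaffold Incenp by -1.02 ± 0.0849. Prc1, which bundles the microtubules of the central spindle, was at 8.73, 8.72 and 8.99 in subclone 2 and 10.08, 9.94 and 10.02 in subclone 3, a difference of -1.20 ± 0.0586. Subclone 3 had the highest mean of the 8 subclones for Aurkb, Prc1 and Hmmr, and subclone 2 the lowest. Hmmr, a spindle protein, differed by -1.21 ± 0.0649, with 1 of its 5 probe sets above the floor running the other way.

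At the kinetochore, Nuf2, a rod of the NDC80 complex that holds microtubules, was at 9.21, 9.09 and 9.41 in subclone 2 and 10.49, 10.37 and 10.38 in subclone 3. Cenpf, a late cell cycle kinetochore protein, was at 9.08, 9.02 and 9.28 in subclone 2 and 10.41, 10.19 and 10.29 in subclone 3. Both differed by -1.17, with no overlap. Kif11, whose promoter is shown above, was at 8.66, 8.53 and 8.76 in subclone 2 and 9.89, 9.81 and 9.84 in subclone 3, a 2.29-fold difference. Plk1, a kinase of mitotic entry, differed by -0.94 ± 0.0723, and Ube2c, the ubiquitin-conjugating enzyme that serves the APC/C, by -1.06 ± 0.0637. Melk, a kinase of dividing cells, differed by -1.19 ± 0.0884.

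Replication genes followed with smaller differences. The mean level of 34 genes was 9.06, 8.99 and 9.15 in subclone 2 and 9.64, 9.62 and 9.60 in subclone 3. The median difference was -0.54. All arrays of subclone 2 were lower for 31 genes, an order that 21.6% of all genes showed. Subclone 2 was the farther from the other 6 subclones for 32. Tk1, thymidine kinase, had the largest difference, at 8.43, 8.36 and 8.66 in subclone 2 and 9.63, 9.45 and 9.55 in subclone 3 (-1.06 ± 0.0701). The ribonucleotide reductase subunits Rrm1 and Rrm2, which make deoxynucleotides, differed by -0.95 ± 0.0646 and -0.76 ± 0.0614. The polymerase genes Pola1, Pola2 and Pold1 differed by -0.88, -0.74 and -0.83, and Mcm5, a subunit of the replicative helicase, by -0.73. Top2a, the topoisomerase that untangles chromosomes, was at 11.02 in subclone 2 and 11.87 in subclone 3, the lowest and the highest of the 8 subclones. Orc1, of the origin recognition complex, and Tyms, thymidylate synthase, overlapped between the groups, at 6.62 and 5.71 in subclone 2 against 6.71 and 5.74 in subclone 3. Dut, which removes dUTP, was the only gene of the list with all arrays higher in subclone 2, at 11.92 against 11.73 in subclone 3.

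Cyclins, their kinases and the E2F factors ran in both directions. Of 33 genes measured, all arrays of subclone 2 were lower for 16 and higher for 6, with a median of -0.19. Over all genes 21.6% were lower and 17.8% higher in this sense, so the 6 lay near the share over all genes. Ccna2, the cyclin of S and G2 phases, was at 9.76, 9.77 and 9.97 in subclone 2 and 10.95, 10.88 and 10.77 in subclone 3 (-1.03 ± 0.0604). Ccnb2 was at 10.32, 10.30 and 10.57 in subclone 2 and 11.24, 11.18 and 11.16 in subclone 3. Cdk1, the mitotic kinase, was at 11.19, 11.16 and 11.34 in subclone 2 and 11.91, 11.78 and 11.74 in subclone 3, a 1.49-fold difference. None of the 3 overlapped. The S phase kinase Cdk2 did overlap (8.51 in subclone 2 and 8.55 in subclone 3), and Ccne1 and Ccne2, the E cyclins, differed by -0.18 and -0.51. Cdc25c, the phosphatase that activates CDK1, differed by -0.83 and Cdkn3 by -0.70.

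The regulators of G1 and the inhibitors differed little, and the E2F factors divided. Ccnd1, cyclin D1, was at 12.01, 12.10 and 12.07 in subclone 2 and 12.27, 12.03 and 12.26 in subclone 3, which overlap. All 3 of its probe sets were lower in subclone 2, by -0.45 to -0.13. Cdkn1a, the inhibitor p21, was at 12.13, 12.13 and 12.15 in subclone 2 and 12.13, 12.14 and 12.14 in subclone 3, a difference of 0.00 ± 0.0328. Rb1, the restraint on E2F, also overlapped (9.19 in subclone 2 and 9.26 in subclone 3). Cdkn1b, the inhibitor p27, was higher by 0.16 ± 0.0458 in subclone 2 with no overlap. Among the E2F factors, the activator E2f1 was higher in subclone 2 (7.85 against 7.58 in subclone 3), whereas E2f2 (-1.04 ± 0.102) and the repressors E2f7 (-0.70) and E2f8 (-0.90) were lower. The other probe set of E2f2 gave -0.12. Foxm1, the driver of mitotic genes, was at 5.88, 6.0 and 6.29 in subclone 2 and 6.44, 6.26 and 6.37 in subclone 3, so that 1 array of subclone 2 lay within the range of subclone 3. Its 3 probe sets were all lower in subclone 2, by -0.72 to -0.18. Myc was at 11.02 in subclone 2 and 11.32 in subclone 3, without overlap.

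Cholesterol synthesis enzymes were also lower in subclone 2, and here subclone 3 lay farther from the mean of the other 6 subclones than subclone 2 did. Over 17 measured enzymes the mean level was 9.28, 9.23 and 9.40 in subclone 2 and 9.97, 9.93 and 9.87 in subclone 3. The median difference was -0.66, and all arrays of subclone 2 were lower for 15 enzymes and higher for 0. Among all genes the same orders held for 21.6% and 17.8%. Relative to the mean of the other 6 subclones the median was 0.01 in subclone 2 and 0.64 in subclone 3, and subclone 3 was the farther from them for 14 of the 17. Subclone 6 was close to subclone 3, with a list mean of 9.82 beside 9.92 in subclone 3, while the other 5 and subclone 2 were at 8.95 to 9.45.

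Along the pathway, Hmgcs1 was at 11.52, 11.46 and 11.55 in subclone 2 and 12.14, 12.22 and 12.15 in subclone 3 (-0.66 ± 0.0571). Mvk and Pmvk, which phosphorylate mevalonate, differed by -0.50 ± 0.0862 and -0.87 ± 0.0707, while Mvd, the next enzyme, overlapped, with arrays from 8.58 to 9.48 in subclone 2 and 8.48 to 9.23 in subclone 3. Idi1 was at 10.35, 10.26 and 10.50 in subclone 2, against 11.56, 11.53 and 11.49 in subclone 3, a 2.24-fold difference and the largest of the list. Subclone 3 had the highest Idi1 mean of the 8 subclones and subclone 2 the fifth highest, the other 6 running from 9.69 to 11.34. Fdps, which makes farnesyl diphosphate, differed by -0.74 ± 0.0671, and Fdft1, which commits it to sterols, by -0.66 ± 0.0507. Sqle, squalene epoxidase, was at 10.74, 10.62 and 10.79 in subclone 2 and 11.15, 11.17 and 11.05 in subclone 3.

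In the steps after squalene, Lss was at 7.56, 7.59 and 7.60 in subclone 2 and 8.53, 8.50 and 8.77 in subclone 3 (-1.02 ± 0.0838). Its 3 probe sets above the floor shared that sign but ranged from -1.02 to -0.06. Cyp51, Msmo1, Nsdhl and Tm7sf2, which strip methyl groups from lanosterol and reduce the products, differed by -0.74, -0.75, -0.64 and -0.70. Dhcr7, which catalyses the last step to cholesterol, was at 7.62 in subclone 2 and 8.36 in subclone 3. None of these 6 overlapped, while Sc5d, an earlier desaturase, did (11.03 in subclone 2 and 11.12 in subclone 3). For Idi1, Lss, Pmvk, Msmo1, Fdps, Dhcr7, Cyp51 and Tm7sf2, subclone 3 had the highest mean of all 8 subclones, and the highest of the other 6 was subclone 6 each time.

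The genes that control SREBP did not show the same order. Srebf2, which encodes SREBP2, was at 9.10, 9.19 and 9.14 in subclone 2 and 9.40, 9.20 and 9.18 in subclone 3. Srebf1 was at 10.07, 10.12 and 10.18 in subclone 2 and 10.15, 10.02 and 10.09 in subclone 3. Insig1, itself a target of SREBP, was at 11.17, 11.12 and 11.20 in subclone 2 and 10.95, 11.17 and 11.08 in subclone 3. The groups overlapped for these 3 and for Scap (10.15 in subclone 2 and 10.03 in subclone 3). Over 16 genes of SREBP control, sterol uptake, transport and efflux, all arrays were higher in subclone 2 for 6 and lower for 5, with a median of 0.11. All genes gave 17.8% higher and 21.6% lower.

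Handlers of sterol ran in both directions, exporters and lipoprotein receptors included. Mylip, a ubiquitin ligase switched on by the sterol sensor LXR, was at 10.65, 10.65 and 10.61 in subclone 2 and 9.43, 9.62 and 9.48 in subclone 3, the highest and the lowest of the 8 subclones. Abca1, a cholesterol exporter and another LXR target, was at 8.96, 8.87 and 8.80 in subclone 2 and 7.80, 8.0 and 7.96 in subclone 3, although its other probe set ran the opposite way. Abcg1, a related exporter, was lower in subclone 2 (5.58 against 6.01 in subclone 3). Scarb1, the HDL receptor, was at 7.72, 7.77 and 7.86 in subclone 2 and 8.81, 8.80 and 8.77 in subclone 3. Vldlr, a lipoprotein receptor, differed by -0.92 ± 0.072, and Stard4, a cholesterol carrier, by -0.66 ± 0.0551. Lrp1, a receptor of broad range, was higher in subclone 2 by 0.59 ± 0.0817.

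Fatty acid genes were lower by less, with a median of -0.20 over 22 genes. All arrays were lower in subclone 2 for 12 and higher for 2, where all genes gave 21.6% and 17.8%. Elovl7, an elongase of long-chain fatty acids, stood out of the list at 5.55, 5.78 and 5.56 in subclone 2 and 8.07, 7.90 and 8.27 in subclone 3. All 6 of its probe sets above the floor ran the same way, and the other 6 subclones had means of 4.57 to 6.36. Acly, which makes cytosolic acetyl-CoA, was at 10.05, 10.01 and 10.17 in subclone 2 and 10.96, 10.94 and 10.83 in subclone 3. Acaca, the carboxylase of the committed step, differed by -0.43 ± 0.0867 and the elongase Elovl6 by -0.49 ± 0.0613.

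Saa3, a serum amyloid A of inflamed tissue, had the second largest positive difference of all genes. It was at 11.81, 11.77 and 11.88 in subclone 2 and 8.55, 8.99 and 8.73 in subclone 3, an 8.37-fold difference. Subclone 3 was the lowest of the 8 subclones and subclone 2 the third highest, so the gap lay on the side of subclone 3: the other 6 ran from 10.12 to 12.06. Of 25 measured genes of acute-phase and innate defence proteins, 8 were higher and 2 lower in subclone 2 at an adjusted p under 0.05, where 13% of all genes were higher and 17.0% lower. The 8 include Saa3, which entered the choice of the pair. Among the 12698 genes at 5.3 or more in either subclone those shares were 17.9% and 23.6%, and 10 of the 25 were below that level in both. The median of the list was 0.07.

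Outside the markers, limma's adjusted p applies. Cp, ceruloplasmin, was at 12.97, 13.03 and 13.05 in subclone 2 and 11.67, 11.90 and 11.73 in subclone 3, 2.39-fold higher with an adjusted p of 1.91e-11 and all 8 probe sets above the floor in that direction. Subclone 2 was the highest and subclone 3 the lowest of the 8 for this gene. Lbp, which presents endotoxin, rose by 1.04 ± 0.161 (adjusted p = 5.54e-05) and C1ra, a complement protease, by 0.79 ± 0.0616 (adjusted p = 1.51e-08). Lcn2, lipocalin 2, rose by 0.56 ± 0.0597 (adjusted p = 6.42e-07). Cd14, the endotoxin co-receptor, and Slpi, a protease inhibitor, fell, by 0.36 and 0.15. Saa1 and Saa2 are close relatives of Saa3 that a probe may share, and Saa1 was near background in both subclones.

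Genes of the JAK-STAT receptors and their suppressors were counted at 12 higher and 3 lower of 28 (42.9% and 10.7%, where all genes gave 13% and 17%), with a median of 0.11. Genes at 5.3 or more in either subclone gave 17.9% and 23.6%, and 1 of the 28 was below that level in both. Osmr, the oncostatin M receptor, was at 9.53, 9.51 and 9.53 in subclone 2 and 7.68, 7.93 and 7.73 in subclone 3, 3.34-fold higher (adjusted p = 1.34e-12), and subclone 2 had the highest mean of the 8. Its 3 probe sets shared that sign but ranged from 0.09 to 1.74. Its signalling partner Il6st (gp130) rose by 0.45, the interleukin-6 receptor Il6ra by 0.79, the interferon gamma receptor Ifngr1 by 0.80 and the interleukin-1 receptor Il1r1 by 0.49. Stat3, the factor that these receptors use, was at 9.76, 9.63 and 9.75 in subclone 2 and 9.43, 9.30 and 9.29 in subclone 3 (0.37 ± 0.065, adjusted p = 0.000205), and Socs3, which its activity induces, rose by 0.51. The adjusted p of Stat3 missed 0.05 when the gene was read from another probe set. Socs2, a suppressor linked to growth hormone signalling, ran the other way, at 5.92, 6.10 and 6.22 in subclone 2 and 8.06, 7.93 and 8.02 in subclone 3 (3.80-fold lower, adjusted p = 3.25e-11), with 1 of its 4 probe sets against the others.

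**Figure D2:**
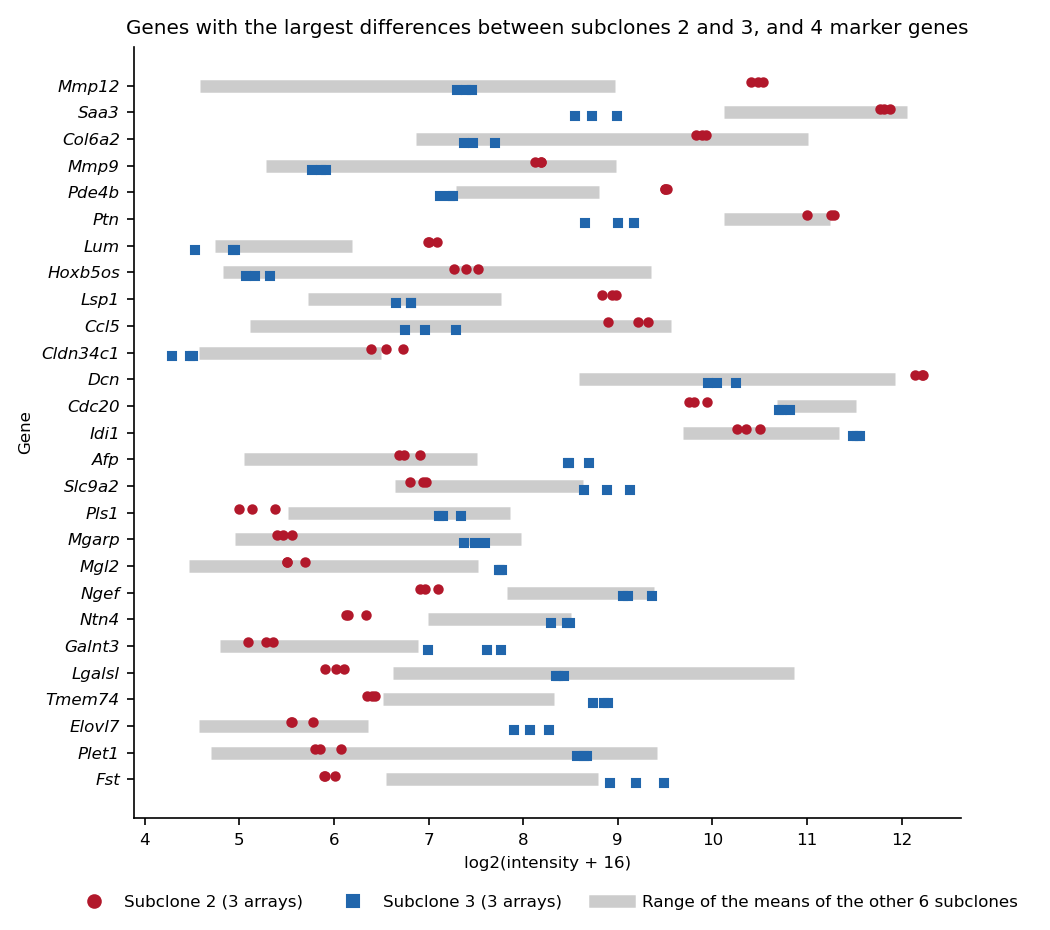
Level of the 12 genes with the largest differences in each direction and of the 4 marker genes, as log2(intensity + 16), in subclone 2 (red circles) and subclone 3 (blue squares), 3 arrays each. Grey bars span the means of the other 6 subclones. The 12 genes in each direction were picked among called genes whose subclone 2 and subclone 3 arrays do not overlap. The 4 markers helped to choose the pair.

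The largest increase was in a secreted protease. Mmp12, the macrophage metalloelastase, was at 10.41, 10.53 and 10.48 in subclone 2 and 7.46, 7.30 and 7.4 in subclone 3, 8.48-fold higher (3.08 ± 0.125, adjusted p = 5.16e-12). Subclone 2 had the highest mean of the 8 subclones and subclone 3 the fourth. Mmp9, gelatinase B, was at 8.13, 8.19 and 8.19 in subclone 2 and 5.86, 5.77 and 5.92 in subclone 3 (4.99-fold, adjusted p = 6.26e-13), but subclone 28 was above both at 8.98. Of 44 extracellular proteases and inhibitors, 16 rose and 8 fell (36.4% and 18.2%, where all genes gave 13% and 17%), with a median of 0.09. Over genes at 5.3 or more in either subclone the shares were 17.9% and 23.6%. Of the other matrix metalloproteases, Mmp3, Mmp19 and the membrane-bound Mmp14 rose by 0.63, 0.85 and 0.62, Mmp10 fell by 0.39 and Mmp11 fell by 0.18, and Mmp13 missed the threshold (11.22 in subclone 2 and 11.02 in subclone 3). Of the plasminogen activators and their receptor, Plat fell by 0.62, Plaur, the urokinase receptor, by 0.42 and Plau by 0.22. Serpinb2, an inhibitor of plasminogen activators, was at 5.03, 5.28 and 5.50 in subclone 2 and 7.13, 6.83 and 7.18 in subclone 3 (3.43-fold lower, adjusted p = 1.58e-09). Adam8, a membrane protease, fell by 1.02 ± 0.102 (adjusted p = 3.16e-07).

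Collagens and matrix proteins held 21 genes that rose and 4 that fell of 57 (36.8% and 7.02%, where all genes gave 13% and 17%), with a median of 0.04 and 15 of them near background in both subclones. Col6a2, a chain of collagen VI, was at 9.89, 9.83 and 9.93 in subclone 2 and 7.47, 7.70 and 7.38 in subclone 3 (5.17-fold higher, adjusted p = 1.59e-13). Col6a1, its neighbour on chromosome 10, was at 10.52, 10.52 and 10.59 in subclone 2 and 8.62, 8.90 and 8.62 in subclone 3 (3.55-fold, adjusted p = 6.26e-13), while the third chain, Col6a3, was near background at 5.17 in both. The small leucine-rich proteoglycans Dcn and Lum, which regulate collagen fibrils and also lie side by side on chromosome 10, rose as well. Dcn was at 12.14, 12.22 and 12.23 in subclone 2 and 9.95, 10.25 and 10.05 in subclone 3 (4.34-fold, adjusted p = 6.26e-13). Lum was at 6.99, 7.01 and 7.09 in subclone 2 and 4.93, 4.95 and 4.53 in subclone 3, so its 4.68-fold difference starts near background. For Dcn and Lum, subclone 2 had the highest mean of the 8 subclones. Npnt, a basement membrane ligand of integrin, was lower, at 5.89 in subclone 2 and 7.25 in subclone 3, as were Cthrc1 (-0.85) and the proteoglycan Vcan (-0.58).

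Secreted signals differed gene by gene. Fst, follistatin, which binds and neutralises activins, had the largest difference of all genes in size. It was at 5.90, 5.91 and 6.01 in subclone 2 and 9.19, 8.92 and 9.49 in subclone 3, 9.57-fold lower (-3.26 ± 0.138, adjusted p = 8.92e-12). Subclone 2 was the lowest and subclone 3 the highest of the 8, with the other 6 from 6.55 to 8.79. The activin subunits Inhba (6.45 in subclone 2 and 6.74 in subclone 3) and Inhbb (6.55 and 6.57 in the same order), named after their values were seen, overlapped between the groups, with adjusted p of 0.249 and 0.911. Of 54 growth factors and antagonists, 15 rose and 13 fell (27.8% and 24.1%, where all genes gave 13% and 17%), with a median of -0.04. The share that fell was near the 23.6% of genes at 5.3 or more in either subclone, of which 17.9% rose.

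Angptl4, an inhibitor of lipoprotein lipase, was at 9.36, 9.29 and 9.37 in subclone 2 and 7.33, 7.84 and 7.61 in subclone 3 (3.36-fold higher, adjusted p = 8.11e-11). Ptn, the growth factor pleiotrophin, was at 11.29, 11.25 and 11 in subclone 2 and 8.65, 9.0 and 9.17 in subclone 3 (4.72-fold, adjusted p = 8.35e-10), with 1 of 3 probe sets opposite. Btc, the EGF receptor ligand betacellulin, was at 7.48, 7.52 and 7.45 in subclone 2 and 9.07, 8.90 and 9.04 in subclone 3 (2.87-fold lower, adjusted p = 7.91e-11). Its receptor Egfr, named after its value was seen, ran the other way, at 9.20, 9.15 and 9.18 in subclone 2 and 7.91, 7.85 and 7.92 in subclone 3 (2.43-fold higher, adjusted p = 2.8e-10). Ntn4, a netrin of basement membranes, was at 6.15, 6.13 and 6.34 in subclone 2 and 8.50, 8.46 and 8.29 in subclone 3 (4.63-fold lower, adjusted p = 6.26e-13).

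Of 41 cytokines and chemokines, 10 rose and 4 fell (24.4% and 9.76%, against 13% and 17% of all genes), with a median of 0.06. Ccl5, a chemokine for T cells and monocytes, was at 9.32, 9.21 and 8.90 in subclone 2 and 6.75, 7.29 and 6.96 in subclone 3 (4.42-fold higher, adjusted p = 5.05e-10). Subclone 24 was higher still, at 9.56. The epithelial alarmins Tslp and Il33 rose by 1.11 ± 0.117 and 0.87 ± 0.0909 (adjusted p = 5.92e-07 and 5.21e-07), and the chemokines Ccl20, Cxcl5 and Cxcl1 by 0.79, 0.64 and 0.42. Il15, which sustains natural killer cells, and Il18 fell by 0.69 and 0.35. Ccl2, the monocyte chemokine, was at 12.92 in both.

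Afp, alpha-fetoprotein, the plasma protein of the fetal liver, was at 6.69, 6.91 and 6.74 in subclone 2 and 8.47, 8.48 and 8.70 in subclone 3, a 3.41-fold difference on all 4 probe sets. Subclone 3 was the highest of the 8 and subclone 2 the third, above most of the other 6, which had means of 5.05 to 7.51. Of 20 oncofetal and pluripotency genes, 3 were higher and 3 lower (15% each way, near the shares over all genes), with 11 near background in both. The 3 lower include Afp, which entered the choice of the pair. Gpc3, a glypican of fetal tissue, had overlapping arrays (5.52 in subclone 2 and 4.75 in subclone 3, adjusted p = 0.0482) and its adjusted p missed 0.05 in 7 alternative settings.

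Genes of hypoxia and glycolysis were higher in subclone 2 in small steps: 22 of 38 rose and 3 fell (57.9% and 7.89%, against 13% and 17% of all genes), with a median of 0.22 and none past 2-fold. Among genes at 5.3 or more in either subclone, 17.9% rose and 23.6% fell. The mean level of the list was 10.28, 10.30 and 10.31 in subclone 2 and 10.04, 10.08 and 10.07 in subclone 3, with no overlap. The collagen-modifying enzymes Plod1 and P4ha2 rose by 0.84 ± 0.0744 (adjusted p = 6.8e-08) and 0.61 ± 0.0849 (adjusted p = 1.62e-05). The oxygen sensors Egln1 and Egln3 rose by 0.42 and 0.41, Bnip3, a mitophagy receptor, by 0.39 and the hexokinase Hk2 by 0.45. The abundant glycolytic genes Ldha and Pgk1 overlapped between the groups, and the glucose transporter Slc2a3 fell by 0.31. Hif1a, the factor that drives these genes and is controlled mainly as a protein, was at 12.34 in subclone 2 and 12.23 in subclone 3 (adjusted p = 0.223).

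Among 18 genes of MHC class I and its loading, 9 rose and 0 fell in limma (50% and 0%, where all genes gave 13% and 17%), with a median of 0.16. All 18 were at 5.3 or more in either subclone, and genes at that level gave 17.9% and 23.6%. With only the 6 arrays of the pair in the fit, 5 rose. At an unadjusted p under 0.05 the full fit also gave 9 and 0. Tap2, a peptide transporter subunit, rose by 0.44 ± 0.104 (adjusted p = 0.00291), Psmb10, an immunoproteasome subunit, by 0.41 ± 0.0678 and Calr, a chaperone, by 0.39 ± 0.0426. The class I heavy chains H2-K1 and H2-D1 overlapped (11.95 and 12.23 in subclone 2 against 11.94 and 12.21 in subclone 3). Of 45 interferon-stimulated genes, 13 rose and 5 fell (28.9% and 11.1%, beside the same shares), with 12 near background in both subclones. Irf1, a factor induced by interferon gamma, was at 9.61, 9.60 and 9.69 in subclone 2 and 8.83, 9.20 and 8.89 in subclone 3 (adjusted p = 4.41e-07), and Slfn2 was 2.77-fold higher. Trim30a fell by 1.29 ± 0.0937 (adjusted p = 5.93e-09), and its close relative Trim30d fell by 1.90 ± 0.101 (adjusted p = 1.16e-10), named after its value was seen. Mx1, Oas1a and Ifit1 overlapped between the groups.

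Of 39 genes of endoplasmic reticulum stress and the amino acid response, 9 rose and 15 fell in subclone 2 (23.1% and 38.5%, where all genes gave 13% and 17%), with a median of -0.11. Genes at 5.3 or more in either subclone gave 17.9% and 23.6%. Vldlr, which entered the choice of the pair, is among those that fell. Psat1, of serine synthesis, was at 10.11, 10.04 and 10.16 in subclone 2 and 11.37, 11.15 and 11.33 in subclone 3 (2.26-fold lower, adjusted p = 2.01e-11). Phgdh and Psph, the steps before and after it, fell by 0.66 and 0.81. Mthfd2, the mitochondrial folate enzyme, was at 8.72, 8.66 and 8.74 in subclone 2 and 9.80, 9.61 and 9.95 in subclone 3 (2.11-fold lower, adjusted p = 2.11e-08), and Shmt2 fell by 0.49. Cth, which makes cysteine, fell by 1.15 ± 0.0918 (adjusted p = 1.9e-08) and Asns, asparagine synthetase, fell by 0.92. Cbs, the other enzyme of cysteine synthesis in the list, overlapped near background (5.34 in subclone 2 and 5.27 in subclone 3). Psat1 and Mthfd2 were lowest in subclone 2 and highest in subclone 3 of the 8 subclones. Atf4, the factor that drives these enzymes and is controlled mainly by translation, overlapped at 11.37 in subclone 2 and 11.41 in subclone 3. Chaperones and degradation genes of the endoplasmic reticulum ran in both directions: Dnajc3, Sel1l, Dnajb9 and Hspa5 rose by 0.50, 0.38, 0.31 and 0.15, Sdf2l1 fell by 0.32, and Herpud1, Pdia4, Pdia6, Edem1 and Hsp90b1 missed the threshold.

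Antioxidant genes under the factor NRF2 were counted at 16 of 31 lower and 5 higher (51.6% and 16.1%, against 17% and 13% of all genes), with a median of -0.14. Over genes at 5.3 or more in either subclone, 23.6% were lower and 17.9% higher. Gclm, the modifier subunit of the enzyme that limits glutathione synthesis, was at 10.09, 10.03 and 10.14 in subclone 2 and 11.30, 10.95 and 11.08 in subclone 3 (2.03-fold lower, adjusted p = 1.98e-08). Gsta4, a glutathione transferase, fell by 0.77 ± 0.0582 (adjusted p = 9.42e-09), Cbr3, a carbonyl reductase, by 0.64 ± 0.0468, and Nqo1 by 0.46. Gsta2 was at 4.58, 5.01 and 4.65 in subclone 2 and 6.47, 5.89 and 6.54 in subclone 3, and belongs to a family of near-identical copies that a probe may share. Nfe2l2, which encodes NRF2, was higher in subclone 2 (12.50 against 12.11 in subclone 3, adjusted p = 8.07e-06), but its other probe set gave -0.32.

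**Figure D3:**
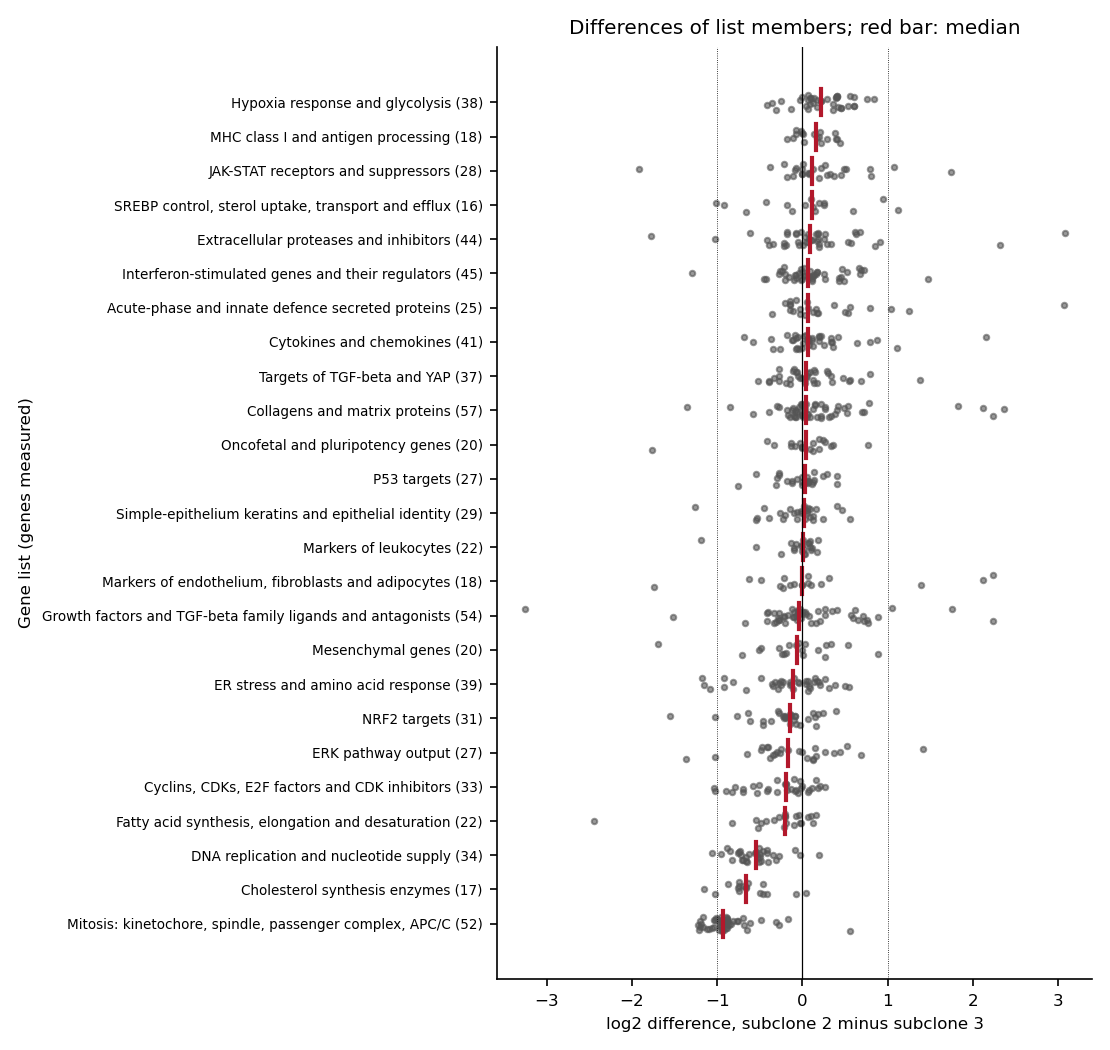
Log2 difference, subclone 2 minus subclone 3, of every measured member of 25 gene lists (grey points, number measured in brackets; red bars are medians; dotted lines mark 2-fold). The medians run from 0.22 for hypoxia and glycolysis to -0.93 for mitosis.

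Signalling outputs moved in both directions. Of 27 genes of ERK output, 7 rose and 13 fell (25.9% and 48.1%, against 13% and 17% of all genes), with a median of -0.17. The shares were 17.9% and 23.6% among genes at 5.3 or more in either subclone. The phosphatase Dusp5 fell by 1.37 ± 0.115 (adjusted p = 3.48e-08), the immediate early factor Egr1 by 1.02 ± 0.108 (adjusted p = 6.32e-07) and the ETS factors Etv4 and Etv5 by 0.65 and 0.47. The inhibitors of the Sprouty family rose, led by Spry1, at 8.57, 8.61 and 8.64 in subclone 2 and 7.44, 7.20 and 6.95 in subclone 3 (2.66-fold, adjusted p = 6.97e-09). Spry2 and Spry4 rose by 0.52 and 0.44. Fosl2 rose by 0.69 on the probe set used and gave -0.14 on another. Of 37 targets of TGF-beta and YAP, 11 rose and 10 fell (29.7% and 27%, beside the same shares). Of the Id genes, inhibitors of helix-loop-helix factors that BMP signals induce, Id1, Id2 and Id3 rose. Id3 was at 9.67, 9.39 and 9.59 in subclone 2 and 7.98, 8.49 and 8.05 in subclone 3 (2.6-fold, adjusted p = 5.17e-09), with Id2 up by 0.79 and Id1 by 0.69. Smad7, an inhibitor of the pathway, rose by 0.56. Of 27 p53 targets, 4 rose and 7 fell, Ckap2 among those counted (14.8% and 25.9%, near the 17.9% and 23.6% of genes at 5.3 or more). Pde4b, which degrades cyclic AMP, was at 9.50, 9.50 and 9.52 in subclone 2 and 7.23, 7.26 and 7.12 in subclone 3 (4.94-fold, adjusted p = 2.29e-15), the highest and the lowest of the 8 subclones.

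The other genes with the widest differences were of several kinds. Lsp1, an actin-binding protein of leukocytes, was at 8.83, 8.94 and 8.98 in subclone 2 and 6.81, 6.82 and 6.66 in subclone 3 (4.44-fold, adjusted p = 3.01e-12). Hoxb5os and Cldn34c1 were 4.64- and 4.38-fold higher. Plet1, a surface protein of placenta and epithelial progenitors, was at 5.85, 5.80 and 6.08 in subclone 2 and 8.64, 8.57 and 8.68 in subclone 3 (6.58-fold lower, adjusted p = 1.23e-12), with 1 of 3 probe sets opposite. Tmem74 was 5.42-fold lower (adjusted p = 4.37e-16), and Lgalsl, Galnt3, Mgl2, Ngef, Pls1, Mgarp and Slc9a2 were 3.95- to 5.18-fold lower. Galnt3, which starts O-linked glycans, was the least even of these, at 7.62, 6.99 and 7.77 in subclone 3. Its 2 probe sets above the floor gave -2.22 and -0.03, so the difference was seen on 1 of them.

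Markers of other cells were read on the same arrays. Of 22 leukocyte markers, 13 were near background in both subclones, among them the pan-leukocyte gene Ptprc (4.51 in subclone 2 and 4.59 in subclone 3) and the macrophage gene Adgre1 (4.69 and 4.63 in the same order). Others lay well above it at like levels, with Csf1r of macrophages at 7.29 in subclone 2 and 7.27 in subclone 3, Cd8a at 7.13 in both, Laptm5 at 6.73 in subclone 2 and 6.75 in subclone 3, and S100a8 at 6.48 in subclone 2 and 6.46 in subclone 3. The list averaged 5.34 to 5.45 on the subclone 2 arrays and 5.4 to 5.47 on the subclone 3 arrays, and 1 of the 22 rose (Lyz2, by 0.18, with an adjusted p that missed 0.05 in 9 alternatives) and 1 fell. The one that fell was Cd68, a lysosomal protein, at 7.32, 7.35 and 7.53 in subclone 2 and 8.64, 8.53 and 8.60 in subclone 3 (adjusted p = 2.32e-08). Of 18 markers of endothelium, fibroblasts and adipocytes, 4 rose and 4 fell (22.2% each way), with 9 near background in both subclones. All genes gave 13% and 17%, and genes at 5.3 or more in either subclone 17.9% and 23.6%. The fibroblast markers Dcn, Lum and Dpt rose, while Col1a1 (4.89 in subclone 2 and 4.67 in subclone 3) and Col1a2 (5.96 and 5.97) overlapped and Pdgfra fell by 0.22. The list averaged 6.55 to 6.57 in subclone 2 and 6.38 to 6.44 in subclone 3. Pecam1 and Cdh5 of endothelium were at 4.69 and 5.33 in subclone 2 and 4.63 and 5.27 in subclone 3. Fabp4, a fatty acid carrier of adipocytes, was at 5.73, 5.92 and 5.77 in subclone 2 and 7.74, 7.27 and 7.62 in subclone 3 (adjusted p = 7.79e-10). The part of other cells in these differences was not tested.

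The cells carried both epithelial and mesenchymal genes. The simple-epithelium keratins Krt8 and Krt18 were at 10.84 and 11.58 in subclone 2 and 11.29 and 11.97 in subclone 3, and both were lower in subclone 2. Of 29 epithelial genes, 3 rose and 5 fell (10.3% and 17.2%, near the shares over all genes), with 13 near background in both. Krt19 fell by 1.26 ± 0.146 (adjusted p = 1.96e-06) and the tight junction gene Ocln by 0.55 ± 0.082, while Epcam rose by 0.46. Of 20 mesenchymal genes, 6 rose and 9 fell (30% and 45%, against 13% and 17% of all genes). The shares were 17.9% and 23.6% over genes at 5.3 or more in either subclone. Nt5e, the surface nucleotidase CD73, was at 4.63, 4.97 and 4.88 in subclone 2 and 6.58, 6.26 and 6.70 in subclone 3, and Cdh2, N-cadherin, fell by 0.71 ± 0.0727 (adjusted p = 4.03e-07). Snai1, a repressor of epithelial genes, rose by 0.89 ± 0.109 (adjusted p = 3.62e-06).

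Differences were also shared along whole chromosomes. Among expressed genes, those at or above the median level, the median difference was -0.30 for 344 genes of chromosome 13, of which 290 (84.3%) were lower in subclone 2. It was 0.23 for 236 genes of chromosome 18, of which 53 (22.5%) were lower, and -0.15 for 332 genes of chromosome 19, of which 240 (72.3%) were lower. The other chromosomes had medians between -0.07 and 0.06. In 4 stretches of equal gene number along chromosome 13 the medians were -0.34, -0.23, -0.29 and -0.34, and along chromosome 18 they were 0.20, 0.23, 0.25 and 0.21, so neither shift lay in 1 stretch. Relative to the other 6 subclones, chromosome 13 was at -0.17 in subclone 2 and 0.12 in subclone 3, and chromosome 18 at -0.02 in subclone 2 and -0.19 in subclone 3. Neither subclone stood apart on chromosome 13. Measured from the mean of all 8, subclones 2 and 28 had similar medians (-0.15 and -0.16). Subclones 23 and 19 followed (-0.10 and -0.02), and subclones 3, 6, 18 and 24 lay together between 0.10 and 0.16. On chromosome 18, by the same measure, only subclone 3 was low (-0.17), the rest lying between 0.0 and 0.05.

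Several genes described above lie on these chromosomes. Fst, Elovl7, Idi1 and Hmgcs1, all lower in subclone 2, are on chromosome 13, as is Mylip, which was higher. Psat1, Dusp5, Kif11, Incenp and Tm7sf2 are on chromosome 19, with Il33, which was higher. Tslp and Smad7, which rose, and Egr1 and Cdh2, which fell, are on chromosome 18. Without the genes of the 3 chromosomes the median was -0.54 for 32 replication genes, -0.93 for 48 mitosis genes and -0.65 for 14 sterol genes. The part of the chromosomal shifts in single genes was not tested.

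**Figure D4:**
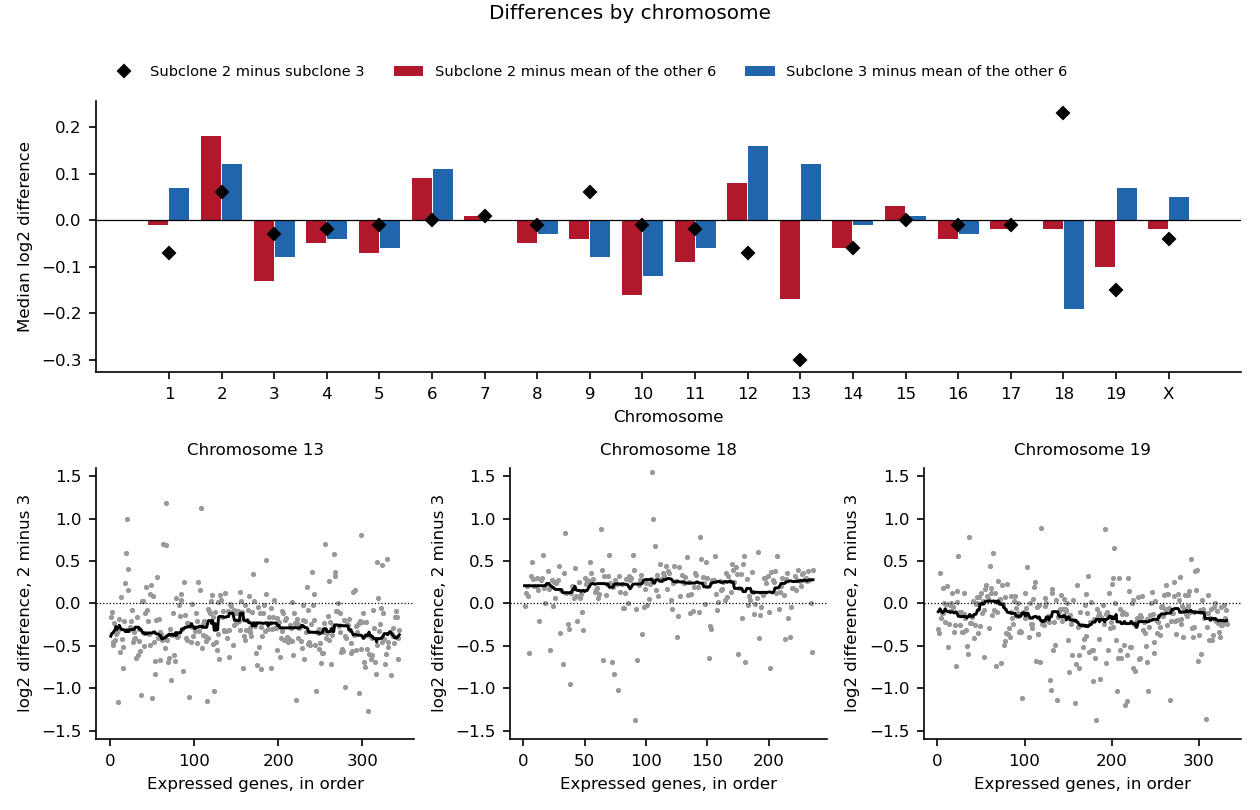
Top: median log2 difference of expressed genes by chromosome, for subclone 2 minus subclone 3 (diamonds) and for each of them minus the mean of the other 6 subclones (red and blue bars). Bottom: the differences of single genes in order along chromosomes 13, 18 and 19 with a running median over 31 genes (2 genes of chromosome 13 lie beyond the axis); chromosome 13 lies mostly below 0 and chromosome 18 mostly above.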

How the data were processed

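Total RNA of 8 LLC subclones was hybridised to Affymetrix arrays after biotin labelling, per the labels' protocols, with 3 arrays of each subclone except subclone 6, which had 2. The values are linear intensities deposited by the authors, 1 per probe set and array, from 0.61 to 17068.52. Their algorithm and scaling were not given in the sources used here. Detection calls were not part of the fit, and the number of arrays limits the precision.

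Of 45101 probe sets, 64 controls were left out, 34945 had 1 gene symbol, 932 had several and 9160 were not listed in the annotation, and only the first were named. Symbols were updated through Entrez identifiers for 34741 probe sets with RefSeq genes of GRCm38.p6, which also gave chromosomes and promoter sequences. Intensities were taken as log2(intensity + 16), and each gene was read from its probe set with the highest mean over 23 arrays, which left 18193 genes, 9010 of them with more than 1 probe set. On this scale the fold of a dim gene is compressed.

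All 23 arrays entered 1 limma fit (lmFit, then eBayes; limma 3.58.1, R 4.3.3) with 8 subclone coefficients, which left 15 residual degrees of freedom. The contrast of subclone 2 with subclone 3 was tested two-sided with Benjamini-Hochberg adjustment over all genes. A gene was called at an adjusted p under 0.05 and a log2 difference of at least 1. List members were counted as having risen or fallen by adjusted p alone. The fit was tested on simulated data. The text names the 4 markers, the 12 largest called differences in each direction, up to 4 members per list past the threshold (up to 8 of the lists that chose the pair, by size, at a level of at least 6), and regulators fixed by name. Other list members are given as examples with their differences.

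The pair, its members and the 25 gene lists (832 symbols, 773 measured) were chosen with earlier results of these data known. The counts of the 19 tested lists include 6 members that entered the choice of the pair: Saa3, Afp, Vldlr, Ckap2, Cdkn1a and Myc. Subclone 2 and subclone 3 arrays with the same replicate number did not deviate together (correlations -0.0306, -0.121 and -0.131 over genes), so the numbers were not taken to pair the arrays. Alternatives covered the pseudocount, a filter on low levels, the choice of probe set, quantile normalization, centring, the arrays in the fit, a replicate block, a mean-variance trend and each of the 6 arrays left out. Leaving out the genes of chromosomes 13, 18 and 19 was added after seeing the data.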

Additional observations from a re-analysis of the deposited data

How the results depend on the processing

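The pseudocount set the number of called genes: 159 higher and 300 lower with a pseudocount of 1, and 43 higher and 72 lower with 64, against 75 and 166 with 16. In the other settings the counts lay between 68 and 90 higher and between 136 and 189 lower. Leaving out each array in turn gave 72 to 81 higher and 151 to 189 lower. With the replicate number as a block, although the numbers do not pair the arrays, the counts were 75 and 166, and of the named genes the adjusted p of Lyz2 alone missed 0.05.

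Without 1 array at a time the median difference ran from -0.61 to -0.50 for replication genes, from -0.98 to -0.88 for mitosis genes and from -0.75 to -0.64 for sterol genes. The lowest value of each came without replicate 3 of subclone 2, whose levels of these lists lay nearest to subclone 3. Reading each gene from the probe set most variable over the other 6 subclones gave -0.61 for replication and -0.74 for sterol genes, and the cause was not tested. Fosl2 turned to -0.14 and Nfe2l2 to -0.32 with that probe set. Among the named genes, the adjusted p of Gpc3, Sox2, Lyz2, Pkp3 and Stat3 missed the threshold in at least 1 alternative, 24 times in all, and the other 1263 values kept their direction and side of the threshold. Counts within the lists moved by more than 1.5 times in 31 cases and did not in 539. Those that moved included the lower count of the acute-phase list (2, or 1 in 7 settings) and the higher counts of NRF2 targets (5, or 1 to 3) and leukocyte markers (1, or 0 in 8 settings). With only the 6 arrays in the fit, 5 MHC class I genes rose in place of 9.

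Genes near background in 1 subclone have a compressed fold, and each subclone is 1 clone, so a difference cannot be carried beyond these clones.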

Other observations

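Called genes also lay side by side on chromosomes. Neighbours here are genes next to each other in the order of the measured genes, so unmeasured genes may lie between them. Of 8 pairs of neighbouring called genes, 7 changed in the same direction. Over all 18193 genes 0.412% were called higher and 0.912% lower, so a shared direction is favoured by the excess of lower genes. How many such pairs position alone would give was not computed. Besides Col6a2 with Col6a1, Dcn with Lum, and Serpinb2 with its neighbour Serpinb7 (-1.59), these were Serpinb6b (1.88) with Serpinb9 (1.19), inhibitors of intracellular proteases on chromosome 13, S100a16 (-1.23) with S100a3 (-1.34), calcium-binding proteins on chromosome 3, and Trim30a with Trim30d. The protocadherins Pcdhb16 and Pcdhb17, adhesion proteins in a cluster on chromosome 18, rose by 1.15 ± 0.0924 and 1.55 ± 0.0756 (adjusted p = 2.02e-08 and 3.98e-11 in limma), and Pcdhb20 of the same cluster by 1.22 ± 0.0922 (adjusted p = 9.94e-09). Pcdhb17 was at 8.03, 8.06 and 8.09 in subclone 2 and 6.36, 6.51 and 6.66 in subclone 3. The only neighbours that changed in opposite directions were Id3 (1.38) and E2f2 (-1.04) on chromosome 4. Neighbouring members of a family can share probe sequence, and these genes were picked after their values were seen.

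Gas6, the ligand of the TAM receptor kinases, was at 6.16, 6.31 and 6.31 in subclone 2 and 4.58, 4.70 and 4.61 in subclone 3 (3.09-fold higher, adjusted p = 1.73e-11), near background in subclone 3. It was also picked after its values were seen.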
